A study of Mus musculus with 6 samples.

Results

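The inflammatory cytokine receptors described here are the surface chains through which cells sense tumour necrosis factor, interleukin-1, interleukin-6, interleukin-10 and the interferons. They were chosen from a list of 10 named genes, as every probe set that the array's annotation pairs with 1 of these genes alone. Of the 10 genes, 9 had such a probe set, 1 each, among 19938 genes that could be read this way. They are Tnfrsf1a, Tnfrsf1b, Il6ra, Il6st, Il10rb, Ifnar1, Ifnar2, Ifngr1 and Ifngr2. Il1r1, the signalling receptor for interleukin-1, had none and was not analysed here. The cells were pro-B and pre-B progenitors, sorted together from BALB/c mice and left untreated, and each array carried 100 ng of amplified RNA. The old group held 3 arrays from mice at 24 months of age and the young group 3 arrays from mice at 2 months. The study asks how ageing and its inflammation act on these progenitors, and its comparison is old against young. The labels do not say whether mice were pooled, so p-values reflect only how these arrays vary, and the number of arrays limits the precision.

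These receptors share a working plan. Ligand binding brings receptor chains together, and most chains cannot signal alone. The signalling chains for interleukin-6, interleukin-10 and the interferons carry JAK kinases that phosphorylate STAT transcription factors. TNF receptors instead recruit adaptor proteins and ubiquitin ligases that switch on NF-kB. In bone marrow, interferons, TNF and interleukin-1 are known to restrain B lymphopoiesis during infection and inflammation, so a progenitor's equipment of receptor chains sets which of these signals it can receive.

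Of the genes above, 4 lie side by side on mouse chromosome 16, in the order Ifnar2, Il10rb, Ifnar1 and Ifngr2, all chains of the class II cytokine receptor family. The 250 bases before the transcription start are shown for the 3 of them with an entry in the RefSeq promoter table (GRCm38.p6), because neighbouring genes of 1 family are among the receptors. All 3 are on the plus strand, and capitals mark a match to a searched motif.
Ifnar2, chr16:91372533-91372782: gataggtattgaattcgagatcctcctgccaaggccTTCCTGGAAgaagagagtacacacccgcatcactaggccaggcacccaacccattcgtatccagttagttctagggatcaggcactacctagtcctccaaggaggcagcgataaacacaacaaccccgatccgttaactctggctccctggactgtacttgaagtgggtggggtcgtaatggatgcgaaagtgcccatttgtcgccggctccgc
Ifnar1, chr16:91484965-91485214: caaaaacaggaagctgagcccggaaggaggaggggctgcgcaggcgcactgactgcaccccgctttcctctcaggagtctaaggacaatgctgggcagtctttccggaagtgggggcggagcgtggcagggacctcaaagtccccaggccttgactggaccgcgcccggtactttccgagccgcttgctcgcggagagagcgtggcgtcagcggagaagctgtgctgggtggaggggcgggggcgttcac
Ifngr2, chr16:91546809-91547058: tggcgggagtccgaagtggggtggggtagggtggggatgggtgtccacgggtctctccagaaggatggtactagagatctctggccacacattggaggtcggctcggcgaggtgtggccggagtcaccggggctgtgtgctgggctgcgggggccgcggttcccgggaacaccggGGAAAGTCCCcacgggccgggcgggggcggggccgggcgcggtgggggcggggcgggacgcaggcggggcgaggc

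The motifs were searched on both strands, and no match overlapped another. The capitals in Ifnar2 are a match to the STAT palindrome TTCNNNGAA, which 7.02% of all 32851 promoters of the same length hold, and those in Ifngr2 are a match to the NF-kB pattern GGGANNTTCC, held by 1.21%. The Ifnar1 window holds neither, nor the interferon response element GAAANNGAAA, held by 2.98%. Their windows were 54.0%, 65.6% and 74.0% G or C in the order shown, against a median of 52.4% over all promoters. Among the other receptors, Tnfrsf1a and Tnfrsf1b each had a STAT palindrome and Tnfrsf1b an interferon response element, so that 3 of 10 receptor promoters, of which Il1r1 has more than 1, held the palindrome. A match is a string of letters and not a measured binding site.

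The old arrays were not alike, and this touches every value below. Over all probe sets the Pearson correlation with single young arrays ran from 0.622 to 0.703 for old replicates 1 and 2, and from 0.976 to 0.984 for old replicate 3. Between young arrays it ran from 0.993 to 0.996. The interquartile range of log2 intensity was 1.52, 1.51 and 2.44 on old replicates 1, 2 and 3. On young replicates 1, 2 and 3 it was 2.73, 2.72 and 2.89. The level of background on an array was the 95th percentile of 1210 probe sets for odorant and pheromone receptors, genes of sensory neurons. It stood at 6.29, 6.21 and 5.02 (log2 intensity) on old replicates 1, 2 and 3 and at 4.75, 4.74 and 4.57 on young replicates 1, 2 and 3. Above it lay 14.8%, 17.1% and 49.2% of probe sets on the old arrays, against 52.9%, 53.2% and 56.3% on the young arrays. Of the 9 receptors, 2, 1 and 9 lay above it on old replicates 1, 2 and 3, against 9 on each young array. Of 13 measured B cell progenitor markers, 6, 8 and 13 were above background on the old arrays and 13 on every young array. Vpreb1, part of the surrogate light chain, was at 11.13, 11.69 and 10.82 on the old arrays, against 11.15, 10.76 and 11.07 on the young arrays. Ebf1, which specifies the B lineage, was at 4.64, 5.61 and 9.70 on the old arrays, against 10.07, 10.02 and 9.90 on the young arrays. Of 13 neutrophil markers, 3, 4 and 12 were above background on old replicates 1, 2 and 3 and 12, 12 and 13 on the young arrays, with a summed intensity of 2220, 4976 and 8744 on the old arrays and 8540, 8261 and 10832 on the young arrays. The same sum over 12 monocyte and macrophage markers was 609, 535 and 598 on the old arrays against 779, 714 and 1314 on the young arrays, and Adgre1, Cd14, Fcgr1, C1qa, C1qb, C1qc and Mrc1 were not above background on any array. Of the others Lyz2, also expressed by neutrophils, read 4.28, 5.22 and 8.17 on the old and 8.88, 8.66 and 9.86 on the young arrays. Cx3cr1 was at 7.28, 7.41 and 6.30 on the old arrays, against 5.83, 5.77 and 5.70 on the young arrays. It was above background on every array, but background was itself higher on the old arrays, so no direction is given for it. The sum over 13 T and NK cell markers was 290 to 429 on the old and 281 to 385 on the young arrays. Above background were 0, 1 and 2 of them on the old arrays and 2, 5 and 5 on the young arrays. That over 8 erythroid markers was 397 to 745 on the old and 842 to 994 on the young arrays. Above background were 1, 2 and 5 of these on the old arrays and 5, 7 and 7 on the young arrays. Tfrc, the brightest on the young arrays, was at 4.15, 4.50 and 8.83 on the old arrays against 9.19, 9.16 and 9.25 there. Klf1, Gata1, Alas2, Slc4a1, Epor and Epb42 had higher old means and Ermap a lower one. Of these Klf1, Gata1, Alas2, Epor and Epb42 were within background on old replicates 1 and 2. Background was itself higher on the old arrays, so no direction is given for these genes. The sum over 10 mature B and plasma cell markers was 458 to 1327 on the old and 1033 to 1391 on the young arrays. Of these 2, 1 and 9 were above background on the old arrays and 9 on each young array. Neutrophils and macrophages also carry most of these receptors, and their part in the results was not tested. In bulk RNA, fewer cells of a type and less RNA per cell cannot be told apart.

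In the comparison of 3 old with 3 young arrays 6 receptors had lower old means and 3 had higher ones, and none passed the threshold, an adjusted p under 0.05 with limma, a linear model that moderates each variance across probe sets. The limma adjusted p ranged from 0.101 to 0.287 over the 9 receptors, and 0 of 23410 probe sets passed, a background of 0.00%. At an unadjusted p under 0.05 there were 5 receptors, all lower. Of all probe sets 46.8% reached that value in either direction, and 5136 of 23410 did as lower. The old and young values did not overlap for 5 receptors. Il6st, Il10rb, Ifnar1 and Ifngr2 were lower on every old array, which 22.9% of all probe sets were, and Il6ra was higher on every old array, which 36.1% were. The median difference over the 9 receptors was -0.79 against 0.35 over all probe sets. All 9 receptors lay above background on each young array, against 52.9%, 53.2% and 56.3% of all probe sets. Of 4817 probe sets with a young mean over 7, 89.1% and 84.3% were more than 1 lower (log2) on old replicates 1 and 2. The medians therefore do not compare like with like.

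**Figure D1:**
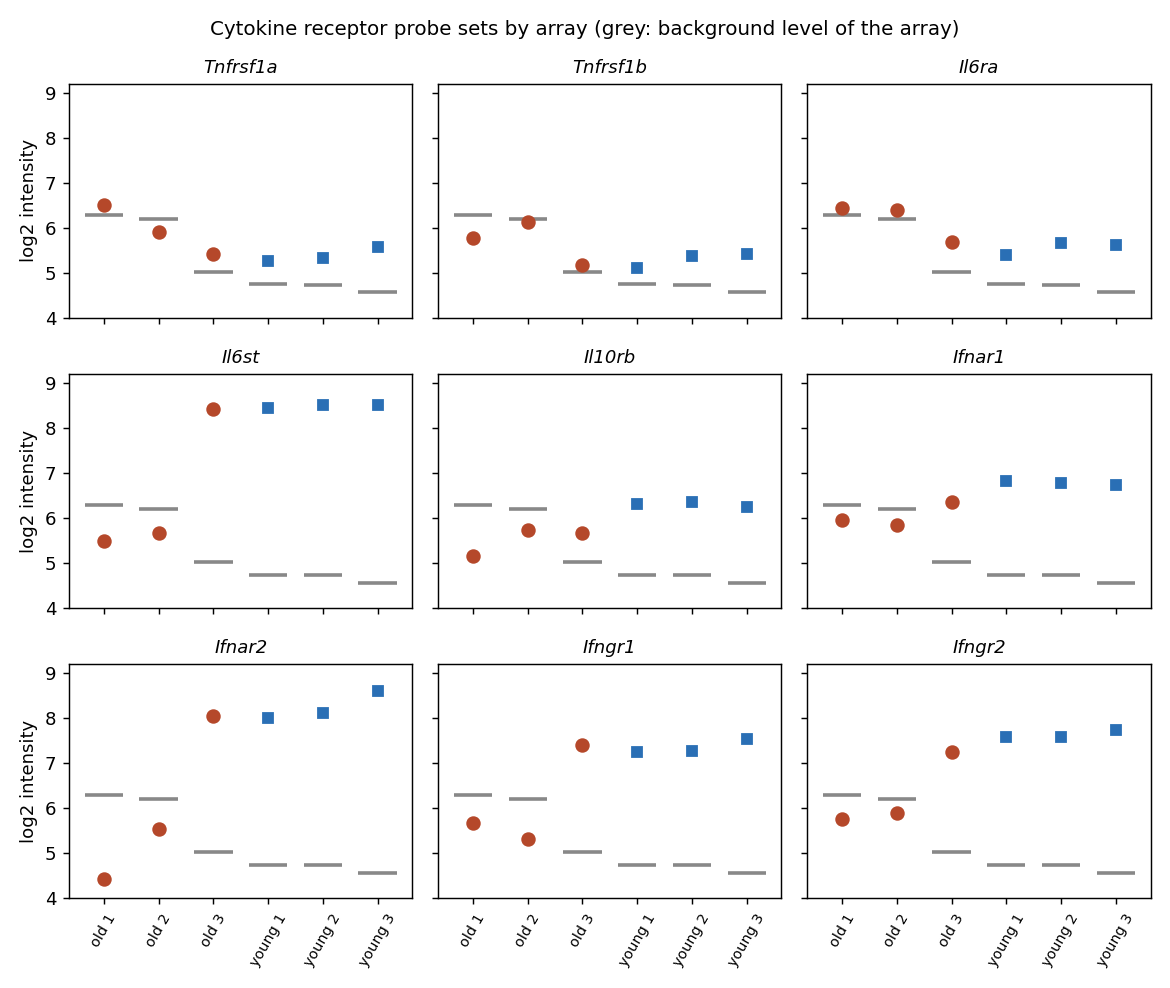
Log2 intensity of the 9 receptor probe sets (vertical axis) on each array (horizontal axis), with old arrays as circles and young arrays as squares, and the background level of each array as a grey bar. On old replicates 1 and 2 background stood at 6.29 and 6.21 and only Tnfrsf1a on old replicate 1 and Il6ra on both lay above it, whereas every receptor lay above it on old replicate 3 and on the young arrays.

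The signalling chain for interleukin-6 and its relatives, Il6st (gp130), showed the split among the old arrays plainly. Its log2 intensity was 5.49, 5.66 and 8.41 on old replicates 1, 2 and 3, against 8.45, 8.52 and 8.51 on young replicates 1, 2 and 3. Old replicate 3 thus lay 0.04 below the lowest young array, though above all of them after quantile normalization, while the other old arrays were within background. The old mean was 6.52 ± 1.64 and the young mean 8.49 ± 0.04 (SD, n = 3 each), a difference of -1.97 ± 0.75 (SE; limma adjusted p = 0.101). Il6ra, the chain that binds interleukin-6 itself, went the other way. It read 6.44, 6.39 and 5.68 on the old arrays, against 5.39, 5.68 and 5.63 on the young arrays, and old replicate 3 exceeded the highest young array by 0.005 only. The difference was 0.60 ± 0.27 (SE; limma adjusted p = 0.118). Measured from each array's own background, Il6ra lay 0.15, 0.18 and 0.66 above it on the old arrays and 0.65, 0.94 and 1.06 above it on the young arrays, so on that scale it was not higher in the old group.

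Both TNF receptors lay near background throughout. Tnfrsf1a, the widely used death-domain receptor (TNFR1), read 6.51, 5.90 and 5.43 on the old arrays, against 5.27, 5.34 and 5.57 on the young arrays. Tnfrsf1b (TNFR2), which lacks a death domain and is best known on lymphocytes and myeloid cells, read 5.77, 6.13 and 5.17 on the old arrays, against 5.11, 5.38 and 5.42 on the young arrays. The groups overlapped for both, since old replicate 3 fell inside the young range each time. The differences were 0.56 ± 0.31 (SE; limma adjusted p = 0.169) for Tnfrsf1a and 0.38 ± 0.30 (SE; 0.287) for Tnfrsf1b. With each array centred on its background level, a choice made after seeing the data, Tnfrsf1a, Tnfrsf1b and Il6ra differed by -0.60, -0.77 and -0.55, so no direction is given for them.

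Of the type I interferon receptor, Ifnar2, the chain that binds interferon alpha and beta tightly, differed most among the old arrays. It was at 4.43, 5.53 and 8.05 on the old arrays, against 8.0, 8.12 and 8.60 on the young arrays. The groups overlapped, with old replicate 3 above the lowest young array. The difference was -2.23 ± 0.85 (SE; limma adjusted p = 0.101), with a 95% interval from -4.26 to -0.20. Ifnar1, the partner chain that carries the kinase Tyk2, was lower on every old array, at 5.97, 5.85 and 6.36 against 6.83, 6.77 and 6.74 on the young arrays. Its old mean was 6.06 ± 0.27 and its young mean 6.78 ± 0.04 (SD, n = 3 each). Both chains were within background on old replicates 1 and 2. The Ifnar1 difference was -0.72 ± 0.22 (SE; limma adjusted p = 0.101), and -0.27 after quantile normalization (0.285).

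Il10rb is the shared second chain of the receptors for interleukin-10, interleukin-22 and the type III interferons. It was at 5.17, 5.74 and 5.66 on the old arrays, against 6.32, 6.37 and 6.26 on the young arrays. All 3 old arrays were lower. Measured from each array's own background, old replicate 3 lay 0.64 above it, between the other old arrays and the young ones. The means were 5.52 ± 0.31 in the old group and 6.31 ± 0.06 in the young group (SD, n = 3 each), a difference of -0.79 ± 0.23 (SE; limma adjusted p = 0.101). On old replicates 1 and 2 the value was within background, as it was for 6 other receptors.

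The interferon gamma receptor has a binding chain, Ifngr1, and a signal-transducing chain, Ifngr2. Ifngr1 was at 5.67, 5.33 and 7.41 on the old arrays, against 7.25, 7.28 and 7.53 on the young arrays, and the groups overlapped. Ifngr2 was at 5.76, 5.89 and 7.25 on the old arrays, against 7.57, 7.59 and 7.75 on the young arrays, and every old array was lower. The differences were -1.22 ± 0.53 (SE; limma adjusted p = 0.113) for Ifngr1 and -1.33 ± 0.41 (SE; 0.101) for Ifngr2. Old replicate 3 thus lay inside the young range for the binding chain and 0.32 below it for the signalling chain.

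Without old replicate 3, that is with old replicates 1 and 2 against the young arrays, all 9 receptors passed the threshold, 6 lower and 3 higher, where 82.4% of all probe sets passed (30.2% lower and 52.2% higher). This count therefore sets the receptors little apart from other genes. For the 6 lower receptors both old values were within background, so their falls have only a bound, taken from the mean background of those arrays. Il6st was at least 4.75-fold lower on old replicates 1 and 2 than on the young arrays and Ifnar2 at least 3.99-fold. Ifngr2 was at least 2.62-fold lower, Ifngr1 at least 2.15-fold, Ifnar1 at least 1.45-fold and Il10rb at least 1.05-fold. These bounds take the deposited intensities as sharing a scale across arrays, and were not tested. After quantile normalization Ifnar1 was at 6.32 and 6.06 on old replicates 1 and 2. It was at 6.57, 6.54 and 6.41 on the young arrays, so its bound does not hold on that scale. For the differences as measured on old replicates 1 and 2, limma adjusted p was 8.68e-06 for Il6st and 0.000236 for Ifnar2. It ran from 5.64e-05 to 0.00526 for Ifngr2, Ifngr1, Ifnar1 and Il10rb. The same arrays were also more than 1 lower (log2) for 89.1% and 84.3% of the 4817 probe sets whose young mean exceeded 7. After quantile normalization Il10rb (limma adjusted p = 0.0731) and Ifnar1 (0.123) no longer passed, and with median centring Tnfrsf1a (0.184) and Tnfrsf1b (0.356) did not. Centring on the background level turned the 3 rises to differences of -0.75 for Tnfrsf1a, -0.92 for Tnfrsf1b and -0.71 for Il6ra.

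Old replicate 3 resembled the young arrays more than the other old arrays did, though its intensities were less widely spread than theirs. It gives a contrast of 1 array against 3, with the lone array assumed to vary like the young ones. Here Il10rb fell, by 0.65 ± 0.13 (SE; limma adjusted p = 0.0314), with a 95% interval from -0.95 to -0.35, to 63.8% of the young level. It was 1 of 9 receptors past the threshold in this contrast, where 5.24% of all probe sets passed as lower and 1.76% as higher. Ifnar1 differed by -0.42 ± 0.13 (SE; 0.0851) and Ifngr2 by -0.38 ± 0.14 (SE; 0.123), neither past the threshold. The remaining 6 differed by between -0.19 and 0.11, at adjusted p from 0.602 to 0.888. Their 95% intervals reached from -0.71 to 0.33 for Ifnar2, the widest, and from -0.37 to 0.21 for Il6st, the narrowest, so changes within those limits were not resolved. Below all young arrays lay 4 receptors (31.8% of all probe sets did) and above them 1 (41.7%). Igll1, the other surrogate light chain component, was the 1 of 13 B cell progenitor markers called on this array, where it fell by 1.28 (limma adjusted p = 0.0346, and 0.0931 without young replicate 1, 0.0511 after quantile normalization and 0.0913 with a pseudocount of 16). The Il10rb call rested on few arrays: its limma adjusted p was 0.0949 without young replicate 1, 0.0712 without young replicate 2, 0.00425 without young replicate 3 and 0.0629 after quantile normalization.

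**Figure D2:**
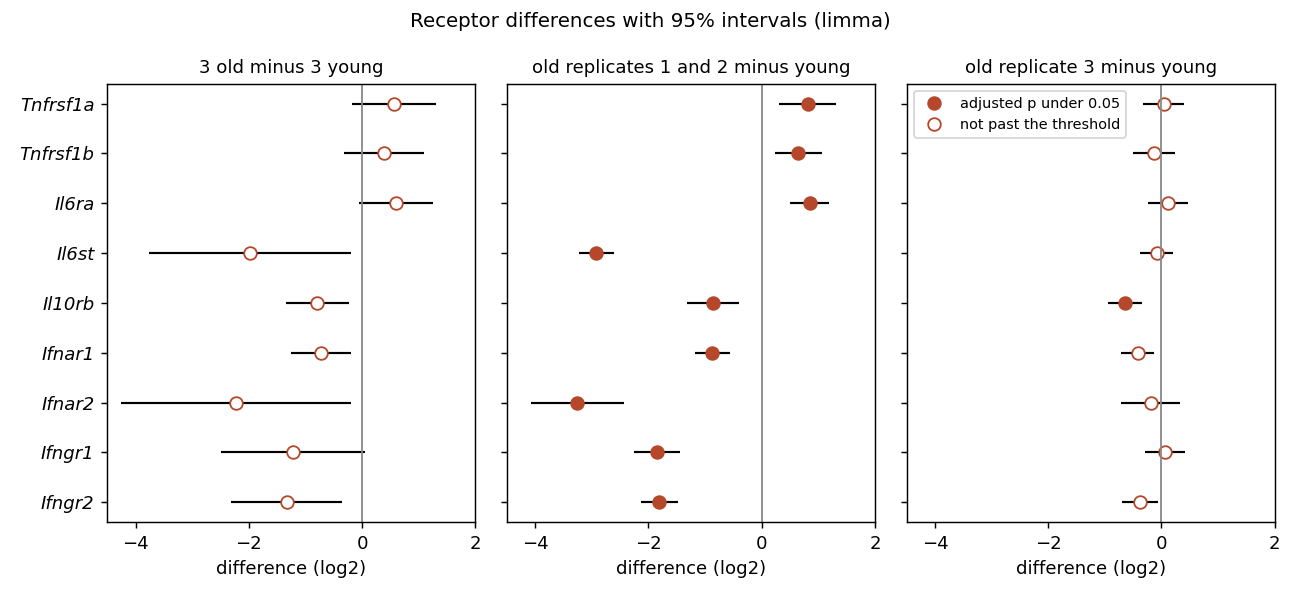
Difference in log2 intensity (horizontal axis), with 95% intervals from limma, for each receptor in the contrast of 3 old with 3 young arrays, of old replicates 1 and 2 with the young arrays, and of old replicate 3 with the young arrays. Filled points passed an adjusted p of 0.05: 0, 9 and 1 of 9 receptors, the last being Il10rb at -0.65.

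The 3 chromosome 16 neighbours that stood lower on old replicate 3, Il10rb, Ifnar1 and Ifngr2, lay 0.59, 0.38 and 0.32 below the lowest young array, and Ifnar2, the first gene of the row, lay within the young range. After quantile normalization those gaps were 0.38, 0.076 and 0.078, and the differences from the young mean were -0.17 for Ifnar1 and -0.10 for Ifngr2. The young arrays spanned 0.11, 0.09 and 0.18 for those 3 genes and 0.59 for Ifnar2, so a fall of the same size in Ifnar2 would have been harder to see.

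**Figure D3:**
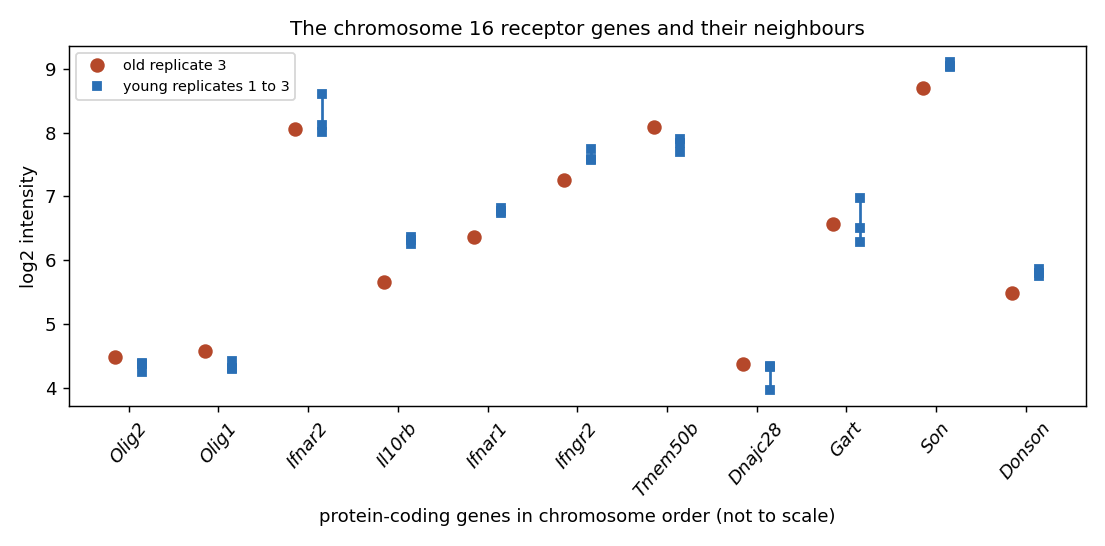
Log2 intensity (vertical axis) on old replicate 3 (circles) and on the 3 young arrays (squares, joined by a line) for the chromosome 16 receptor genes and neighbouring protein-coding genes with a probe set, in chromosome order and not to scale. Il10rb, at 5.66 on old replicate 3 against 6.26 to 6.37 on the young arrays, had the widest gap among the receptors.

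The mean over the 9 receptors was 5.69, 5.82 and 6.60 on the old arrays and 6.69, 6.78 and 6.89 on the young arrays. Among 10079 other genes above background on every young array, those whose pattern over the 6 arrays was most like this mean were Zmpste24 (Pearson r = 0.9995), Atp1b3 (0.9993), Cand1 (0.9991), Clp1 (0.9990) and Ngly1 (0.9989). They encode a protease that matures lamin A, a sodium pump subunit, a cullin ligase regulator, an RNA kinase and a glycan-removing enzyme. Zmpste24 was at 5.99, 6.34 and 8.51 on the old arrays, against 8.86, 9.08 and 9.31 on the young arrays. These correlations rest on the gap between old replicates 1 and 2 and the other arrays, which most bright probe sets share.

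Of the proteins that carry the signal from TNF and interleukin-1 receptors, 27 of 31 listed genes were measured, and 21 had lower old means. The median difference was -0.58 against 0.35 over all probe sets. On each young array 26 of the 27 were above background, against 52.9% to 56.3% of all probe sets, so these medians too compare unlike sets. None passed over 3 old and 3 young arrays, and 13, all lower, had an unadjusted p under 0.05. Of all probe sets 46.8% did in either direction, and 5136 of 23410 did as lower. On old replicate 3 alone 21 of the 27 were below the young mean, as were 10200 of all 23410 probe sets. Below all young arrays lay 16 of the 27 (31.8% of all probe sets did) and above them 3 (41.7%). These shares also compare unlike sets. Tab3, an adaptor that docks the kinase TAK1 on ubiquitin chains, was at 5.67, 5.24 and 5.10 on the old arrays. On the young arrays it was at 6.24, 6.34 and 6.44. The values on old replicates 1 and 2 were within background (6.29 and 6.21). On old replicate 3 Tab3 was just above it (5.02), so the size of its fall is not well measured. Every old array was lower, and on old replicate 3 the difference was -1.24 ± 0.14 (SE; limma adjusted p = 0.00867). Map3k7, which encodes TAK1, differed by -0.77 (0.0257) there, Sharpin, a subunit of the linear ubiquitin ligase, by -0.71 (0.0315), and Cflar, the inhibitor of caspase-8, by -0.78 (0.0275). Cflar was named after its values were seen. Tab3 passed under every alternative run for this contrast, whereas Map3k7, Sharpin and Cflar did not after quantile normalization (limma adjusted p = 0.069, 0.154 and 0.0509) or without young replicate 1 (0.0842, 0.094 and 0.0683), nor Sharpin and Cflar without young replicate 2 (0.0645 and 0.0536). The 2 members with the smallest p among those with higher old means were Traf1 (0.50 ± 0.22, SE), within background on all 6 arrays, and Tab1 (0.49 ± 0.29, SE), within it on the old arrays.

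Of the JAK-STAT genes downstream of the interleukin-6, interleukin-10 and interferon receptors, 22 of 23 were measured. On young replicates 1, 2 and 3, 20, 20 and 21 of them were above background, against 52.9% to 56.3% of all probe sets. Over all probe sets 8912 of 23410 had lower old means and the median difference was 0.35, so the figures that follow compare unlike sets. Lower old means were seen for 16, with a median difference of -0.56, and 0 passed the threshold over all arrays, where 9 lower and 2 higher had an unadjusted p under 0.05 (46.8% of all probe sets did), or on old replicate 3, where the smallest adjusted p was 0.0784. Jak1, the kinase used by all of these receptors, was at 5.22, 5.84 and 9.04 on the old arrays, against 9.14, 9.35 and 9.33 on the young arrays. Jak2, which pairs with Ifngr2, was at 4.07, 3.90 and 6.08 on the old arrays, against 6.48, 6.64 and 6.87 on the young arrays. Both kinases were within background on old replicates 1 and 2. All old values of both kinases were lower, with differences of -0.24 (limma adjusted p = 0.311) for Jak1 and -0.59 (0.0784) for Jak2 on old replicate 3. Pias2, a STAT inhibitor, differed by -0.73 ± 0.27 (SE) over all arrays and was within background on old replicates 1 and 2. Socs3, the feedback inhibitor of gp130, differed by 0.81 ± 0.29 (SE) and Pias4 by 0.60 ± 0.24 (SE), both within background on old replicates 1 and 2 (limma adjusted p from 0.101 to 0.104 for the 3 genes).

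Of the partner chains and related receptors, 26 of 28 were measured, and 8 had lower and 18 higher old means, with a median difference of 0.25. Tgfbr1, the type I TGF-beta receptor, was at 3.91, 5.05 and 6.56 on the old arrays, against 7.08, 7.04 and 6.95 on the young arrays. The groups did not overlap (limma adjusted p = 0.101). Both Tgfbr1 and Il17ra were within background on old replicates 1 and 2. Il17ra differed by -1.09 ± 0.50 (SE) and Tnfrsf13c, the BAFF receptor, by -0.69 ± 0.33 (SE), while Il12rb1, within background on the old arrays, differed by 0.92 ± 0.33 (SE), and none passed. Il20rb, a chain of interleukin-20 family receptors, was at 7.18, 7.49 and 6.43 on the old arrays, against 5.75, 5.90 and 5.89 on the young arrays. It was the 1 member that passed on old replicate 3, where it rose by 0.58 ± 0.13 (SE; limma adjusted p = 0.0454), against a background of 1.76% called higher. That call was lost with median centring (limma adjusted p = 0.0726), with background centring (0.348), with a pseudocount of 16 (0.052), without young replicate 1 (0.122) and without young replicate 2 (0.0789).

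Of the ligands, 23 of 26 were measured and 22 had higher old means, with a median difference of 0.58, but few were above background: 3, 2 and 6 on old replicates 1, 2 and 3 and 6, 5 and 8 on the young arrays. The exception was Ltb, the membrane partner of lymphotoxin alpha, at 6.52, 6.15 and 8.0 on the old arrays against 7.79, 7.88 and 8.0 on the young arrays (limma adjusted p = 0.126). Ifna5, an interferon alpha gene from a family of near-identical copies, was at 8.47, 8.98 and 7.27 on the old arrays, against 6.56, 6.72 and 6.38 on the young arrays. All old values were higher, and on old replicate 3 it rose by 0.72 ± 0.16 (SE; limma adjusted p = 0.0436), 1 of 23 ligands called higher, against a background of 1.76%. The rise was not past the threshold with median centring (limma adjusted p = 0.0558), with background centring (0.145), with a pseudocount of 16 (0.0701) or without young replicate 1 (0.111). A probe set of such a family may also read its relatives. Lta, at 5.65, 5.92 and 4.86 on the old and 4.55, 4.52 and 4.52 on the young arrays, was within background on all 6 arrays.

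**Figure D4:**
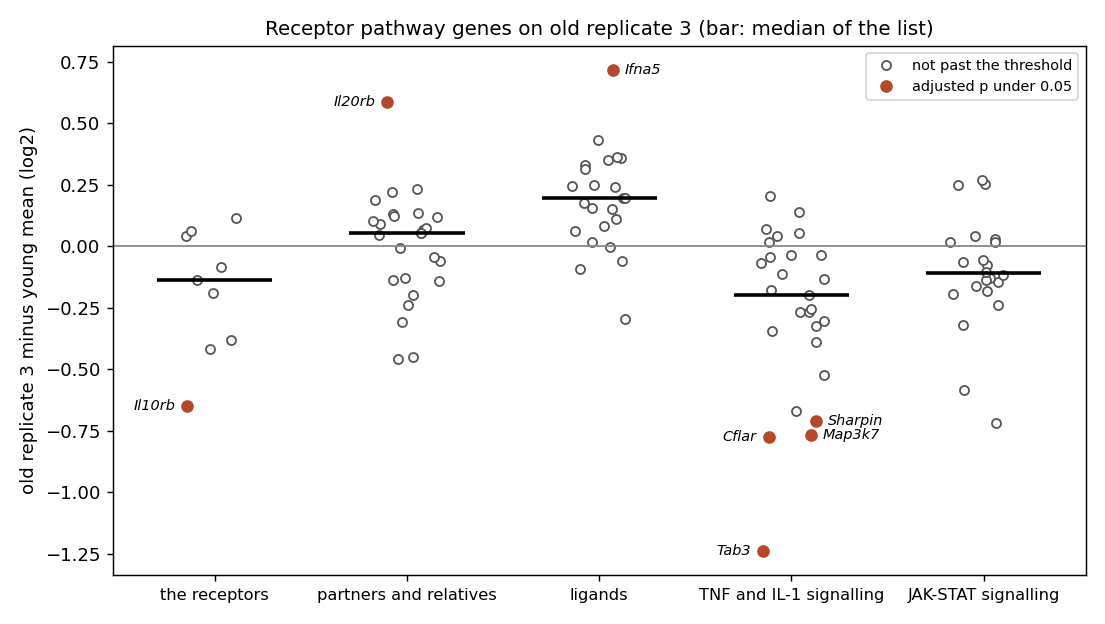
Old replicate 3 minus the young mean (log2, vertical axis) for the 9 receptors and the 4 lists of pathway genes, each point a gene and each bar the median of the list. Filled points passed a limma adjusted p of 0.05: Il10rb, Tab3, Map3k7, Sharpin and Cflar were lower and Il20rb and Ifna5 higher.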

How the data were processed

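The deposited values are linear intensities per probe set, made by the authors with RMA according to the submitters' processing notes, which give neither its version nor its settings here. The platform's annotation pairs 21789 of 28940 probe sets with 1 gene and 1621 with several, and leaves 5530 unnamed. None of those with several genes holds a receptor. Log2 was taken first. The 23410 probe sets with a gene were fitted with limma 3.58.1 in R 4.3.3, age group as the only factor, 2-sided, with the Benjamini-Hochberg adjustment over all of them and a threshold of 0.05. The fits without old replicates 1 and 2, and without old replicate 3, used the same steps. Pathway and marker genes were represented by their brightest single-gene probe set.

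The receptors, lists and tests were chosen with earlier results of these data known. The text names every receptor, up to 3 lower and 2 higher genes of each pathway list by smallest p, the 5 genes most like the receptors' mean, and some B cell markers. Deviations of same-numbered old and young arrays correlated at 0.157, 0.150 and 0.279, all above 0.1, though old replicate 2 with young replicate 1 (0.141) and old replicate 1 with young replicate 2 (0.153) reached as much, so the replicate number was also fitted as a block. The code was tested on simulated data. The NF-kB motif had been planned as a half-site, and the pattern searched spans both half-sites. Sequences and motifs came from RefSeq tables, read with pandas 2.3.3 in Python 3.11.15, and figures were drawn with matplotlib 3.10.9.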

Additional observations from a re-analysis of the deposited data

How the results depend on the processing

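Over 3 old and 3 young arrays the count of 0 called probe sets, and of 0 called receptors, held under every alternative run except 3. Estimated array weights called 19998 probe sets and 9 receptors (a fit that stopped before its tolerance was met), leaving out old replicate 3 called 19285 and 9, and leaving out old replicates 1 and 2 together called 1638 and 1. Leaving out 1 array at a time gave from 0 to 19285 probe sets and from 0 to 9 receptors. With the replicate number as a block 0 probe sets and 0 receptors were called, at a smallest adjusted p of 0.081, and for old replicates 1 and 2 against the young arrays it called 17437 and 9. Old replicate 3 alone leaves no residual degree of freedom under the block. Quantile normalization moved the differences over all arrays to -0.27 for Ifnar1, -0.81 for Ifngr2 and 1.06 for Il6ra, none called. Without old replicates 1 and 2 the differences of Tnfrsf1b (-0.14) and Ifngr1 (0.060) turned sign. With each array centred on its background level, added after seeing the data, those of Tnfrsf1a (-0.60), Tnfrsf1b (-0.77) and Il6ra (-0.55) did, and on old replicates 1 and 2 alone they were -0.75, -0.92 and -0.71. That scale moved the median difference of all probe sets to -0.80, against 0.00 with median centring, 0.05 after quantile normalization and 0.35 as deposited. Relative to the deposited median, Tnfrsf1a, Tnfrsf1b and Il6ra stood at 0.21, 0.03 and 0.25 and Il10rb at -1.14.

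For old replicate 3 against the young arrays all alternatives were added after seeing the data. The 1638 calls (411 higher, 1227 lower) and 1 receptor became 2675 (241 higher, 2434 lower) and 2 with median centring, 4197 (101 higher, 4096 lower) and 3 with background centring, 3733 and 2 at an adjusted p under 0.1, and 928 calls with a pseudocount of 16. After quantile normalization 0 receptors were called. Leaving out 1 young array gave from 189 to 3920 calls and from 0 to 2 receptors. For old replicates 1 and 2 against the young arrays, quantile normalization called 11663 probe sets (5733 higher, 5930 lower) in place of 19285 (12225 higher, 7060 lower). Median centring called 15407 (6750 higher, 8657 lower). The cause of these changes was not tested. Averaging several probe sets of a receptor was not run, since each has 1. Background limits what old replicates 1 and 2 can show for 7 receptors.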

Other observations

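The 4 receptor genes on chromosome 16 have protein-coding neighbours that were measured too, named here after their values were seen. On old replicate 3, Ifnar2 was within the young range, and the next 3 genes in order, Il10rb, Ifnar1 and Ifngr2, lay below all young arrays. Beyond them Tmem50b, a membrane protein, was at 8.08 on old replicate 3 against 7.69, 7.90 and 7.83 on the young arrays. Gart, an enzyme of purine synthesis, was at 6.57 on old replicate 3 against 6.50, 6.29 and 6.97 on the young arrays. Son, a splicing factor, was at 8.70 on old replicate 3 against 9.10, 9.04 and 9.03 on the young arrays, and Donson, a replication factor, at 5.48 against 5.86, 5.75 and 5.79. Of the neighbours named here only Il10rb passed the threshold in that contrast (limma adjusted p = 0.0314), and 31.8% of all probe sets lay below all young arrays on old replicate 3.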
